A study of Mus musculus with 5 samples.

Results

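The genes of cholesterol synthesis, uptake and their control by the transcription factor SREBP2 were examined in cultured mouse epidermal stem cells with and without Angptl4. The 28 genes were taken by symbol from the table of 17657 genes, and all 28 were found: 8 enzymes of the mevalonate arm, 11 enzymes of the squalene and sterol arm, 4 genes of SREBP2 control and 5 genes of sterol uptake, transport, storage and sensing. Of these, 27 passed the filter on low counts and were among the 12957 genes tested. Nr1h3 did not, at 2, 5 and 2 counts in the WT libraries, 4 in KO1 and 6 in KO2.

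The cells, progenitors of the keratinocytes that form the epidermis, came from male C57BL/6 mice (time label 8 weeks) and grown in KGM2, a keratinocyte medium. Wild-type cells (WT, 3 libraries) were compared with Angptl4 knockout cells (KO, 2 libraries). Angptl4 encodes a secreted inhibitor of lipoprotein lipase. The sources used here give neither the part of the gene removed nor whether a group's libraries are separate mice or cultures. The p-values therefore measure the spread between these libraries alone, and that spread may be technical. Bulk RNA cannot tell fewer cells of a type from less RNA per cell.

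Cholesterol is built from acetyl-CoA. The mevalonate arm makes isoprenoid units, squalene synthase commits them to sterols, and a series of ring closure, demethylation and reduction steps ends in cholesterol. SREBP2, encoded by Srebf2, is a membrane-bound transcription factor of the endoplasmic reticulum. When sterols are plentiful the Insig proteins hold it there with its escort Scap; when sterols are scarce it is carried to the Golgi, cut free and activates genes of the whole pathway, Insig1 among them. The liver X receptors, encoded by Nr1h2 and Nr1h3, respond to oxidised sterols and turn on genes of sterol export. In the epidermis, keratinocytes make much of the cholesterol of the skin barrier themselves.

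Promoter sequences of 24 of the 28 genes were found in a RefSeq table on GRCm38.p6. No window was matched for Fdps, Fdft1, Sqle and Stard4, so these genes were not searched. The 24 genes had 31 windows of 300 bases (250 before to 50 after a transcript start). Each window was searched on both strands for TCACNCCAC, the core of a sterol response element, for TCACNCCA, which lies within that core, and for CCAAT, the box bound by NF-Y, a known partner of SREBP2. The core was found for 1 of 24 genes (4.17%), Hmgcs1, against 1.37% of the 10357 tested genes with a window. The shorter form was found for 3 genes (12.5%), Hmgcs1, Msmo1 and Srebf2, against 4.54%. CCAAT boxes were found for 20 of 24 genes (83.3%), against 43.2% of tested genes. The GC box GGGCGG was found for 83.3% against 68.1% and the E-box CACGTG for 20.8% against 11.6%. Genes with several starts had several windows, and a match describes the letters only.

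The 250 bases before the start are shown for 4 genes that were lower in KO cells, with TCACNCCA or the longer core and CCAAT in capitals on either strand, and for Nr1h2, which was higher and had 0 of these matches. Hmgcs1 (chr13:119690101-119690350, plus strand) has the sterol element and 3 CCAAT boxes. Msmo1 (chr8:64733579-64733828, minus strand) has the shorter element and 3 boxes, Hsd17b7 (chr1:169969206-169969455, minus strand) has 3 boxes, and Insig1 (chr5:28071162-28071411, plus strand) has 1. The window of Nr1h2 is chr7:44553966-44554215, minus strand. Over all its windows Insig2, the other gene that was higher, has 3, and genes that did not pass have as many or more (Mvk 5, Nsdhl 4, Ggps1 3).
Hmgcs1: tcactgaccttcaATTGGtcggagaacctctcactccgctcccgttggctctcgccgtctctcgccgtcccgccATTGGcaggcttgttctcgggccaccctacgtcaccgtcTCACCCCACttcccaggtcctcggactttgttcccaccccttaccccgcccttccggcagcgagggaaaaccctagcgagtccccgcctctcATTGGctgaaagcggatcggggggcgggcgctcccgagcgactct
Msmo1: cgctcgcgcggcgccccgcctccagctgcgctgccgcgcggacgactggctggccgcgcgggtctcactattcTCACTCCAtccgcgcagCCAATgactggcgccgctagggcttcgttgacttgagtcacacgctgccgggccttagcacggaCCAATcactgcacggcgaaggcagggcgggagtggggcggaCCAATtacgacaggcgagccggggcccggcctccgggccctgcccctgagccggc
Hsd17b7: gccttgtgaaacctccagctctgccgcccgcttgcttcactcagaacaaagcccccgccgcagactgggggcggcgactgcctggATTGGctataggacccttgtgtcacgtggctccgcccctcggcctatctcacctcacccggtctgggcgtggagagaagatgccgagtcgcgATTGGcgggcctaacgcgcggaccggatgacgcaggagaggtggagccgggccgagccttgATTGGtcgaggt
Insig1: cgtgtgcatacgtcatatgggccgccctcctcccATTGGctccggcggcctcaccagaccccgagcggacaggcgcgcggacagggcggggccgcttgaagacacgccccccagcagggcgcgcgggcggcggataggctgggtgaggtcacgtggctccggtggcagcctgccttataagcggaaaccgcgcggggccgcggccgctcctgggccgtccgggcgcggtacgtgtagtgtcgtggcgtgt
Nr1h2: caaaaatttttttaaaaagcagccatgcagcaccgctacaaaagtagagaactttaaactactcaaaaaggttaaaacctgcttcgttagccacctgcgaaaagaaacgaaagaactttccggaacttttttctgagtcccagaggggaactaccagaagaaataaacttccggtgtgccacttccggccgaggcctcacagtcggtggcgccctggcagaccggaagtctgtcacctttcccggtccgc

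The libraries held 20283084 to 20773407 expected counts, so 1 CPM (1 count per 1000000 counts of the library) stands for about 21 counts. The KO libraries differed far more from each other than the WT libraries did, with a biological coefficient of variation of 28.9% against 5.21%. The targeted gene, Angptl4, was at 6.97, 5.76 and 4.13 CPM in WT1, WT2 and WT3, 0.832 CPM in KO1 and 1.06 in KO2. Each library labelled KO was thus below the whole WT range (log2 change -2.56 ± 0.32 (SE), adjusted p = 0.00458, but 0.127 with a separate spread for each group). Basal keratinocyte markers (6 of 6 matched; Krt5, Krt14, Itga6, Itgb4, Trp63 and Col17a1) were present in every library, with a summed level of 34591 to 35783 TPM (transcript level scaled by length) in WT, 44850 in KO1 and 35211 in KO2, nearly all of it Krt5 and Krt14. Of the 6, 2 fell and 1 rose: the transcription factor gene Trp63 was at 332 to 333 TPM in WT, 189 in KO1 and 164 in KO2 (log2 change -0.73, adjusted p = 0.00518), the integrin Itga6 was at 369 to 421, 216 and 199 TPM (-0.91, adjusted p = 0.00413), and Itgb4 was at 434 to 470, 631 and 606 TPM (0.49, adjusted p = 0.0171).

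Most enzymes of cholesterol synthesis were at a lower level in the KO cells, and in the second KO library far lower than in the first. Together the 19 enzymes summed to 4452, 4467 and 4230 TPM in the WT libraries, 2968 TPM in KO1 and 1335 TPM in KO2, which is 67.7% and 30.5% of the WT mean. By the edgeR test over all genes 7 of the 19 enzymes fell, 0 rose and 12 did not pass. Over all 27 tested genes 9 fell, 2 rose and 16 did not pass, where 20.4% of all tested genes were lower and 20.4% higher. The 2 KO libraries were both below the WT range for 17 of the 27 and above for 3, where 34.0% of all tested genes lay below and 32.5% above. The median log2 change was -0.80 over the 27 genes, -1.01 over the enzymes and 0.02 over all tested genes. For 18 of the 19 enzymes KO2 was below KO1 (94.7%), against 49.8% of all tested genes. The median log2 ratio of KO2 to KO1 was -1.23 over the enzymes and 0.00 over all tested genes.

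The calls depended on how the spread was taken. Without any one WT library 2 genes were lower, Hsd17b7 and Dhcr7, and 1 was higher, Nr1h2. Without WT1, WT2 and WT3 in turn 7.60, 8.94 and 8.77% of all genes were called lower and 7.62, 8.81 and 8.68% higher. With a separate spread for each group 16 genes were lower and 1 higher (12.1 and 12.5% of all genes). That separate spread is 1 factor per group shared by all genes, so it does not give each gene its own KO spread. With DESeq2 14 were lower and 2 higher (19.5 and 19.1% of all genes). KO1 alone against WT gave 16 lower and 5 higher, where 30.9% of all genes were lower and 30.0% higher. KO2 alone gave 20 lower and 2 higher, where 30.5% of all genes were lower and 29.3% higher. In these last fits the single KO library is assumed to vary like the WT libraries.

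**Figure D1:**
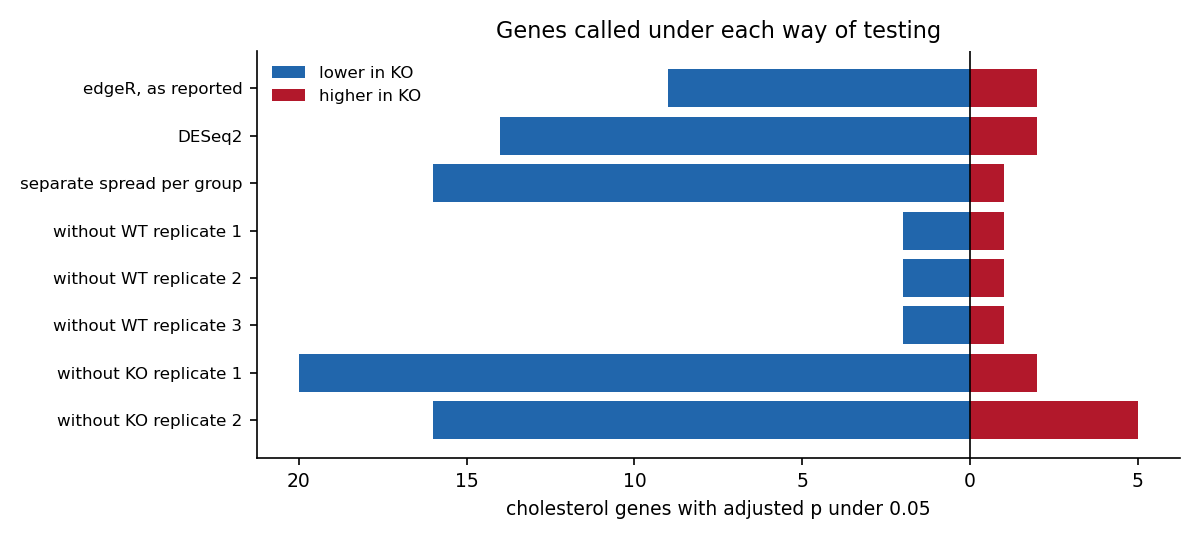
Number of cholesterol genes with adjusted p under 0.05 that were lower (left of 0) or higher (right of 0) in KO. Rows are the test as reported, DESeq2, a separate spread for each group and each library left out in turn. The other alternatives, among them the replicate block, are not shown. The test as reported gave 9 lower and 2 higher, and the number lower ran from 2 without any one WT library to 20 without KO1 (KO replicate 1).

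Markers of other cell types were read in the same libraries. Of the fibroblast markers (12 of 12 matched), 6 of the 11 tested rose and 0 fell, where 20.4% of all tested genes were higher. They summed to 214 to 226 TPM in WT, 357 TPM in KO1 and 174 TPM in KO2. Most of that sum was Fbln2, at 174 to 184 TPM in WT, 252 TPM in KO1 and 123 TPM in KO2, and Fbln1, at 39.2 to 39.8, 71.1 and 38.8 TPM. Neither of these 2 passed, and the 6 that rose were Col1a1, Dcn, Pdgfrb, Postn, Col6a1 and Col6a2. Postn was at 0.03 to 0.13 TPM in WT, 10.5 in KO1 and 4.29 in KO2 (log2 change 6.87, adjusted p = 0.00283). Col6a1 was at 0.05 to 0.07, 4.05 and 1.61 TPM (5.42, adjusted p = 0.00326), and Col6a2 at 0 to 0.1, 4.08 and 1.29 TPM (5.44, adjusted p = 0.00767). The collagen Col1a1 was at 0.49, 0.53 and 0.05 TPM in WT1, WT2 and WT3, 6.18 TPM in KO1 and 1.38 TPM in KO2, and Lum was at 0 in WT1, WT3 and KO2. Differentiated keratinocyte markers (6 of 6 matched) summed to 1181 to 1603 TPM in WT, 1636 in KO1 and 2011 in KO2, mostly Sbsn and Krtdap, and 2 of the 6 rose and 0 fell. Those were the early differentiation keratins: Krt1 was at 5.99 to 10.5 TPM in WT, 267 in KO1 and 29.7 in KO2 (log2 change 4.26, adjusted p = 0.0177), and Krt10 at 0.84 to 1.49, 12.7 and 2.84 TPM (2.32, adjusted p = 0.0253). Ivl, a later marker, was at 24.9 to 31.3 TPM in WT, 12 in KO1 and 23.9 in KO2 and did not pass (adjusted p = 0.137). The lists for sebocytes (3 of 4 matched), melanocytes (4 of 4), endothelium (4 of 4) and fat cells (2 of 3) summed to under 5 TPM in every library, and the immune list (5 of 5) to 41.5 to 50 TPM in WT, 65.7 in KO1 and 56.9 in KO2. Nearly all of the immune sum was Cd68, at 41.2 to 47.0 TPM in WT, 65.4 TPM in KO1 and 56.3 TPM in KO2, while the pan-leukocyte gene Ptprc was at 0 to 0.06 TPM. The part of other cell types or of differentiation in the changes of the cholesterol genes was not tested.

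**Figure D2:**
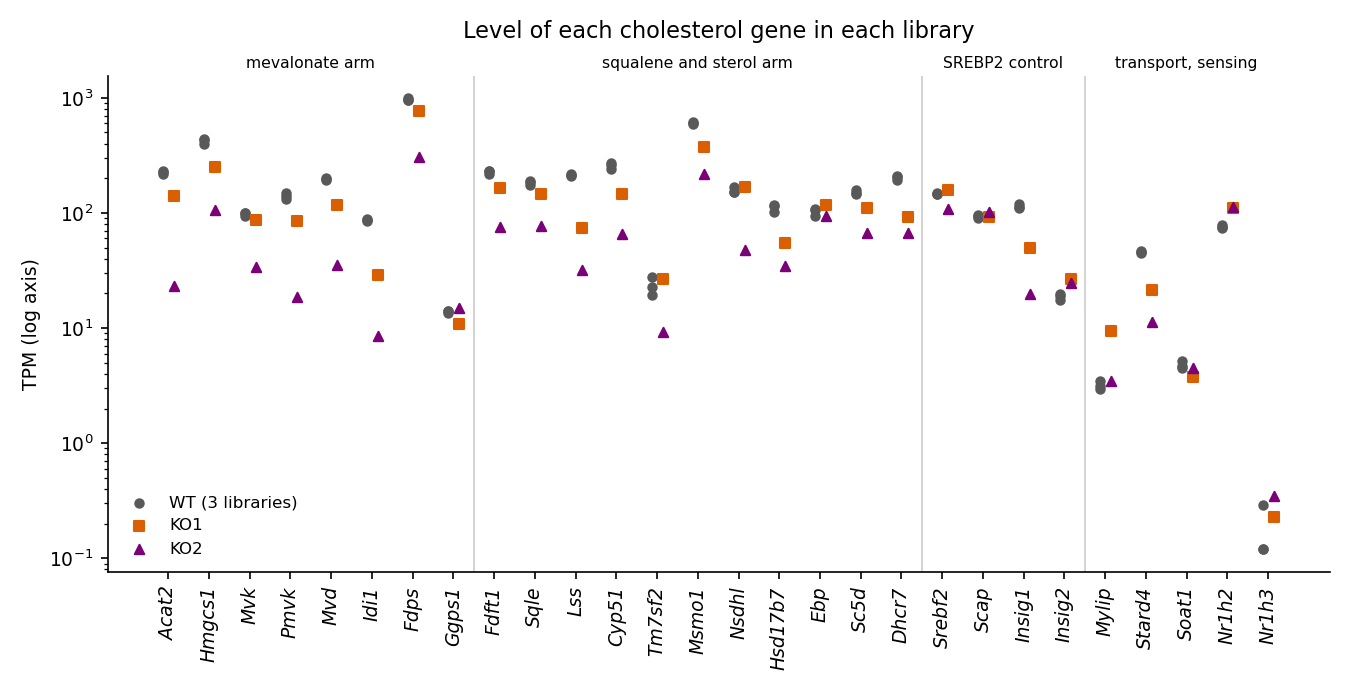
Level of each of the 28 genes in TPM on a log axis, in pathway order, with one grey point for each WT library, an orange square for KO1 and a purple triangle for KO2. Fdps was the highest gene in every library (967 TPM on average in WT) and Nr1h3 the lowest, and the KO2 triangles lie well below the WT points for most enzymes.

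Levels per transcript length set the order of the genes in WT cells. Farnesyl diphosphate synthase, Fdps, led with 967 ± 21.3 TPM (SD, n = 3), ahead of Msmo1 with 602 ± 10.4, Hmgcs1 with 423 ± 21.6 and Cyp51 with 259 ± 17.4. These 4 genes did not overlap between neighbours in that order. Below them, the WT ranges overlapped for Fdft1 and Acat2, for Dhcr7 and Mvd, and for each neighbouring pair from Nsdhl to Pmvk from Insig1 to Scap, and for Tm7sf2 and Insig2. Fdps and Msmo1 kept ranks 1 and 2 in KO1 and in KO2, while Acat2 stood at rank 6 in WT, 9 in KO1 and 19 in KO2, and Lss at 7, 18 and 17. Nr1h2 stood at rank 21 in WT, 13 in KO1 and 3 in KO2.

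In the mevalonate arm, Hmgcs1 and Idi1 fell and the other 6 enzymes did not pass, where 20.4% of all tested genes were lower. The 8 genes summed to 2165, 2198 and 2089 TPM in WT, 1496 TPM in KO1 and 548 TPM in KO2. Their median log2 ratio to the WT mean was -0.68 in KO1 and -2.23 in KO2. In KO1 all 8 lay below every WT library and in KO2 7 of 8 did, the exception being Ggps1, where 44.7 and 43.6% of all tested genes did.

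Idi1, the isomerase that readies isoprenoid units for joining, fell most of all 27 genes. It was measured at 126, 126 and 124 CPM in WT1, WT2 and WT3, 42.5 in KO1 and 12.4 CPM in KO2. The KO libraries were at 34.0 and 9.88% of the WT mean, well outside the narrow WT range, and the fitted log2 change was -2.19 ± 0.51 (SE, adjusted p = 0.0228). Without any one WT library this call was lost (adjusted p = 0.0745 to 0.0776).

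Hmgcs1, which makes HMG-CoA, was at 765, 758 and 698 CPM in WT, 450 in KO1 and 188 CPM in KO2. Its log2 change of -1.21 ± 0.37 (SE) passed narrowly (adjusted p = 0.0470). It was lost under 9 of the 16 alternatives, among them DESeq2's size factors (adjusted p = 0.0506) and the removal of WT1 (0.130, the highest of them). Both KO libraries were nevertheless below every WT library.

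The other enzymes of this arm were also at lower levels in KO2, with Ggps1 as the exception. Acat2, the cytosolic thiolase that joins acetyl-CoA units, was at 233, 236 and 228 CPM in WT, 149 in KO1 and 24.3 CPM in KO2, so that the KO libraries differed 6.14-fold, more than for any other enzyme of the pathway. Its log2 change of -1.42 ± 0.71 (SE) did not pass (adjusted p = 0.162). The phosphomevalonate kinase Pmvk was at 82.3, 86.8 and 76.9 CPM in WT, 49.7 in KO1 and 10.7 in KO2 (adjusted p = 0.110), and the decarboxylase Mvd at 176, 173 and 169 CPM, then 103 and 31.0 CPM (adjusted p = 0.0731). For these genes KO1 lay between WT and KO2.

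Mvk, the mevalonate kinase, was close to WT in KO1 and low in KO2, at 85.4, 80.2 and 84.8 CPM in WT against 75.8 and 29.2 CPM. Fdps showed the same order, at 595, 610 and 588 CPM in WT, 490 in KO1 and 195 CPM in KO2, and did not pass (adjusted p = 0.143). Ggps1, whose product goes to protein prenylation and not to sterols, was at 28.1, 28.9 and 27.4 CPM in WT, 24.9 in KO1 and 31.1 CPM in KO2. Its fitted log2 change was -0.01 ± 0.12 (SE), and it was the only gene of this arm with KO libraries on opposite sides of the WT range.

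**Figure D3:**
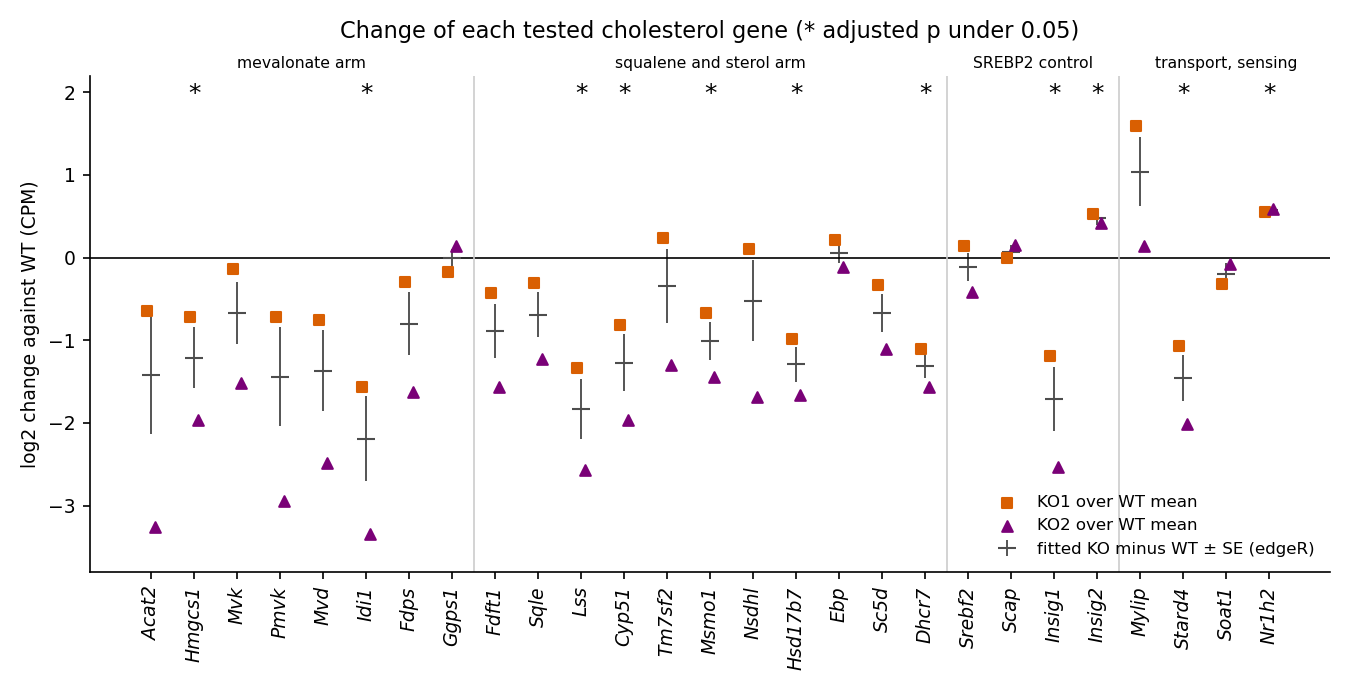
Log2 change against WT of each of the 27 tested genes in pathway order: orange squares are KO1 and purple triangles KO2, each over the WT mean, and grey bars the fitted KO minus WT change ± SE. Stars mark the 9 genes that fell and the 2 that rose; KO2 lies below KO1 for all 11 genes of the squalene and sterol arm.

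In the squalene and sterol arm, Lss, Cyp51, Msmo1, Hsd17b7 and Dhcr7 fell and the other 6 enzymes did not pass. Over all tested genes 20.4% were lower. The 11 genes summed to 2287, 2269 and 2141 TPM in WT, 1472 TPM in KO1 and 788 TPM in KO2. In all 11 KO2 was below KO1, and the median log2 ratio to the WT mean was -0.43 in KO1 and -1.56 in KO2.

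Dhcr7, the reductase of the last step to cholesterol, had the smallest p among the 9 genes that fell. Its level was 246, 239 and 229 CPM in WT, 111 in KO1 and 80.5 CPM in KO2 (chr7:143823167-143848410). The KO libraries were at 46.7 and 33.8% of the WT mean and closer to each other than for most enzymes, and the log2 change was -1.31 ± 0.15 (SE, adjusted p = 0.00406). Hsd17b7, a ketoreductase of sterol demethylation, was at 271, 262 and 234 CPM in WT, 128 in KO1 and 80.7 CPM in KO2, a log2 change of -1.29 ± 0.21 (SE, adjusted p = 0.0088). These 2 genes were called lower under all 16 alternatives (highest adjusted p 0.0334 and 0.0472).

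Lss, the cyclase that forms lanosterol, fell most in this arm. It was at 458, 472 and 457 CPM in WT, 183 in KO1 and 78.1 CPM in KO2, a log2 change of -1.83 ± 0.36 (SE, adjusted p = 0.0148). Cyp51, which removes the first methyl group of lanosterol, was at 603, 577 and 528 CPM in WT, 326 in KO1 and 146 in KO2 (-1.27 ± 0.34, SE, adjusted p = 0.0342). Msmo1, a methyl oxidase of later sterol demethylation, was at 565, 549 and 548 CPM in WT, 347 in KO1 and 202 in KO2 (-1.01 ± 0.23, SE, adjusted p = 0.0225). For all 3 genes both KO libraries were below the WT range, and the call was lost without any one WT library (adjusted p = 0.0576 to 0.107).

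The squalene enzymes and the desaturase had lower values in both KO libraries without passing. Squalene synthase, Fdft1, was at 352, 346 and 330 CPM in WT, 254 in KO1 and 115 in KO2 (adjusted p = 0.0801). Squalene epoxidase, Sqle, was at 257, 262 and 243 CPM, then 205 and 109 CPM (adjusted p = 0.0900). The desaturase Sc5d was at 190, 180 and 178 CPM, then 145 and 85.3 CPM (adjusted p = 0.0646). All 3 passed with a separate spread for each group (adjusted p = 0.0236, 0.0356 and 0.0289). The group factor behind that spread is shared by all genes and is not fitted to the KO libraries of each gene.

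For the remaining enzymes the KO libraries disagreed. Nsdhl, a dehydrogenase of sterol demethylation, was at 170, 185 and 168 CPM in WT and at 189 CPM in KO1 but 54.1 CPM in KO2. Tm7sf2, a sterol reductase, was at 16.7, 20.1 and 14.1 CPM in WT, 20 in KO1 and 6.86 CPM in KO2. Ebp, the sterol isomerase, was at 92.7, 94.0 and 82.0 CPM in WT, 104 in KO1 and 82.9 CPM in KO2, and its log2 change was 0.06 ± 0.12 (SE). In each of these KO1 lay inside or above the WT range, and Nsdhl and Tm7sf2 were low in KO2 alone.

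**Figure D4:**
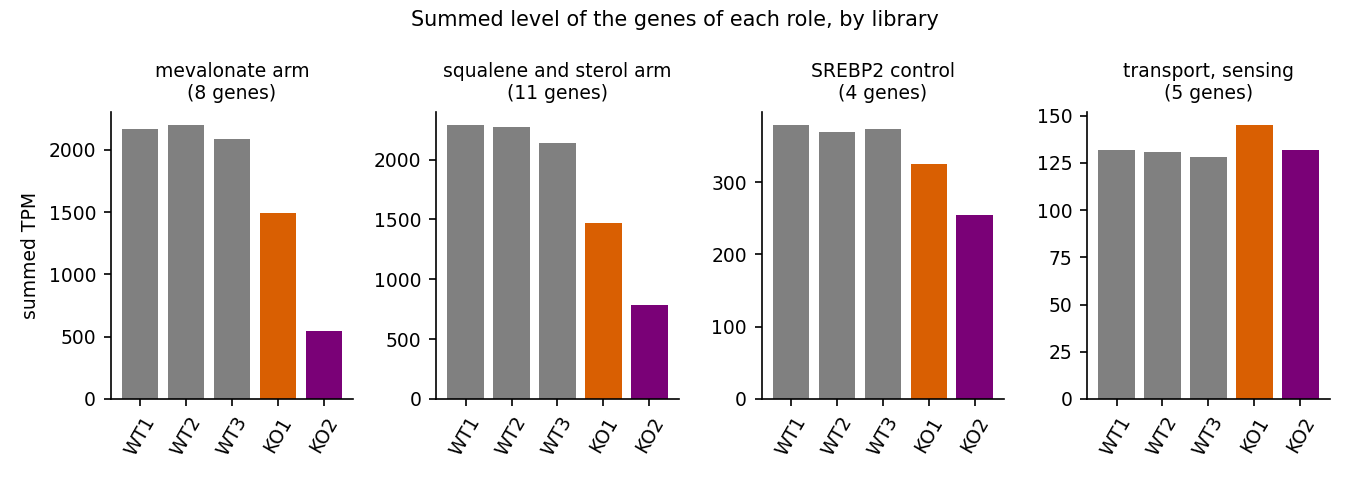
Summed TPM of the genes of each role in each library, with bars from 0 (grey WT, orange KO1, purple KO2). The 8 mevalonate genes sum to 548 TPM in KO2 against 2089 TPM or more in each WT library. The 5 transport and sensing genes sum to 128 to 145 TPM in all 5 libraries, with opposite changes inside that sum. Stard4 is at a mean of 45.8 TPM in WT, 21.5 in KO1 and 11.2 in KO2. Nr1h2 is at a mean of 76.2 TPM in WT, 110 in KO1 and 113 in KO2.

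Among the genes of SREBP2 control, Insig1 fell, Insig2 rose, and Srebf2 and Scap did not pass. Over all tested genes 20.4% were lower and 20.4% higher. Srebf2 itself was at 350, 348 and 358 CPM in WT, 388 in KO1 and 265 CPM in KO2, on opposite sides of the WT range (log2 change -0.11 ± 0.17, SE, adjusted p = 0.636). Scap was at 200, 191 and 202 CPM in WT, 197 in KO1 and 219 CPM in KO2, a log2 change of 0.07 ± 0.08 (SE). These are RNA levels and hold no measure of how much SREBP2 protein was cut free.

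Insig1, which SREBP2 itself is known to activate, was at 158, 150 and 148 CPM in WT, 66.7 in KO1 and 26.3 CPM in KO2 (chr5:28071412-28078662). It fell to 43.9 and 17.3% of the WT mean, a log2 change of -1.71 ± 0.39 (SE, adjusted p = 0.0215). Its paralog Insig2 (chr1:121304353-121332662), which also retains Scap, was at 23.8, 24.8 and 22.2 CPM in WT, 34.1 in KO1 and 31.6 CPM in KO2, and rose by 0.48 ± 0.09 (SE, adjusted p = 0.0131) on the log2 scale. Both paralogs were outside the WT range in both KO libraries, in opposite directions. Per transcript length, Insig1 exceeded Insig2 6.24-, 5.68- and 6.31-fold in WT1, WT2 and WT3 and 1.85-fold in KO1, and the ratio was 0.792 in KO2.

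Both calls were lost without any one WT library, at adjusted p = 0.0712 to 0.0771 for Insig1 and 0.0502 to 0.0682 for Insig2. With a separate spread for each group Insig1 passed (adjusted p = 0.00527) and Insig2 did not (0.0610).

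**Figure D5:**
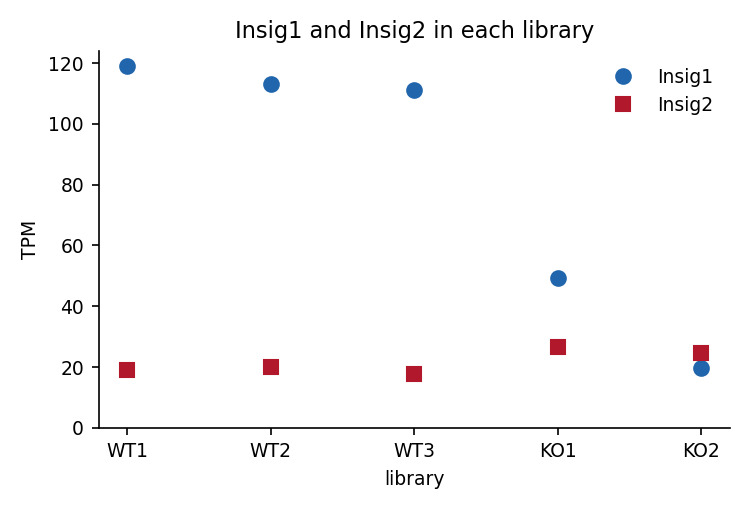
Level of Insig1 (blue circles) and Insig2 (red squares) in TPM in each of the 5 libraries. Insig1 exceeds Insig2 5.68- to 6.31-fold in the WT libraries and 1.85-fold in KO1, and lies below it in KO2.

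Of the genes of sterol transport and sensing, Stard4 fell, Nr1h2 rose and Mylip and Soat1 did not pass. The shares over all tested genes were 20.4% lower and 20.4% higher. Stard4, a carrier that moves cholesterol between membranes and a known SREBP2 target, was at 121, 125 and 124 CPM in WT, 58.9 in KO1 and 30.7 CPM in KO2. Its log2 change was -1.46 ± 0.28 (SE, adjusted p = 0.0127), lost without any one WT library (adjusted p = 0.0527 to 0.0545). Nr1h2 (chr7:44549616-44553968), the broadly expressed liver X receptor, was at 79.3, 76.9 and 76.0 CPM in WT, 114 in KO1 and 116 CPM in KO2. It rose by 0.57 ± 0.06 (SE, adjusted p = 0.00367), and unlike the enzymes its KO libraries were nearly equal.

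Mylip, a ubiquitin ligase and liver X receptor target that sends lipoprotein receptors to degradation, was at 5.21, 4.69 and 4.46 CPM in WT, 14.4 in KO1 and 5.27 CPM in KO2. KO1 was far above the WT range and KO2 just above it, and the log2 change of 1.04 ± 0.42 (SE) did not pass (adjusted p = 0.0997). Soat1, which esterifies cholesterol for storage, was at 12.5, 11.3 and 10.9 CPM in WT and 9.25 and 11.0 CPM in KO1 and KO2, with overlap (log2 change -0.20 ± 0.13, SE). Nr1h3, the other liver X receptor, was not tested at its 2 to 6 counts a library, too few to show a difference.

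Other genes of the pathway were read from 3 lists. Of their 45 tested genes, 14 were called in either direction, against 40.8% of all tested genes (20.4% lower and 20.4% higher). Of 14 genes of SREBP processing and sterol-regulated degradation, 2 rose, 2 fell and 10 did not pass (median log2 change -0.12). The Golgi proteases that release SREBP2 moved apart, with Mbtps1 at 102, 101 and 107 CPM in WT against 120 and 125 CPM in KO1 and KO2 (log2 change 0.25 ± 0.07, SE, adjusted p = 0.0363) and Mbtps2 at 42.8, 42.9 and 45.2 CPM against 25.8 and 34.1 CPM (-0.54 ± 0.13, SE, adjusted p = 0.0272). Fbxw7, which marks nuclear SREBP for degradation, rose by 0.35 ± 0.09 (SE, adjusted p = 0.0331). These 3 calls did not hold under every alternative (highest adjusted p 0.225, 0.105 and 0.166). Tmem97, a sterol-regulated membrane protein, was at 81.4, 80.6 and 82.6 CPM in WT and 48.9 and 33.0 CPM in KO1 and KO2, and fell by 0.99 on the log2 scale (adjusted p = 0.00987).

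Of 18 genes of sterol transport, export and turnover, 5 rose, 2 fell and 11 did not pass (median log2 change 0.30). Cyp27a1, which makes an oxysterol in mitochondria, was at 1.41, 0.774 and 1.21 CPM in WT and 9.40 and 22.6 CPM in KO1 and KO2, a log2 rise of 3.81 ± 0.46 (SE, adjusted p = 0.00417). Ch25h, another oxysterol-forming enzyme, moved the other way, from 12.7, 14.6 and 13.5 CPM to 2.10 and 0.773 CPM (-3.24 ± 0.39, SE, adjusted p = 0.0042). Lipa, the lysosomal lipase that frees cholesterol from esters, rose from 10.3, 10.5 and 9.42 CPM to 18.8 and 20.8 CPM (adjusted p = 0.00367), and Gramd1a, which carries cholesterol from the plasma membrane inward, from 24.9, 23.4 and 23.7 CPM to 50 and 41.0 CPM (adjusted p = 0.0041). For all 4 genes the KO libraries lay outside the WT range on the same side. Over all tested genes 34.0% lay below and 32.5% above. The 4 were picked for the smallest p of their list, so their position outside the range adds no support.

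Abca1, Abcg1 and Lrp8 were chosen after their values were seen. Abca1, the cholesterol exporter and a known liver X receptor target, rose from 8.09, 6.39 and 7.28 CPM in WT to 24.5 and 58.5 CPM in KO1 and KO2 (log2 change 2.52 ± 0.37, SE, adjusted p = 0.00669). Abcg1, another exporter and known receptor target, was at 6.14, 6.34 and 2.96 CPM in WT, 1.42 in KO1 and 3.09 in KO2, with overlap, and did not pass (-1.19 ± 0.49, SE, adjusted p = 0.105). Lrp8, a lipoprotein receptor, fell from 65.9, 65.0 and 62.3 CPM to 23.5 and 13.5 CPM (-1.80 ± 0.24, SE, adjusted p = 0.00518).

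Of 14 genes of the isoprenoid branches (protein prenylation, dolichol and ubiquinone), 13 were tested, 0 rose, 3 fell and 10 did not pass. Over all tested genes 20.4% were higher and 20.4% lower. Pdss1, which builds the side chain of ubiquinone, was at 9.84, 10.1 and 10.7 CPM in WT and 2.45 and 2.56 CPM in KO1 and KO2, a log2 change of -2.02 ± 0.14 (SE, adjusted p = 0.00179). The prenyltransferase subunits Fnta and Rabggta fell by 0.43 and 0.44 (adjusted p = 0.0102 and 0.0305), and both calls were lost under some alternatives (highest adjusted p 0.12 and 0.112). Trit1, which modifies transfer RNA with an isoprenoid group, was at 11.5, 10 and 11.5 CPM in WT and 13.4 and 16.4 CPM in KO and did not pass (adjusted p = 0.0513).

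Counts of 16 of the 28 genes were whole in every library (within 0.001) and those of 12 were not, so reads of these 12 were divided with other genes: Acat2, Hmgcs1, Pmvk, Idi1, Ggps1, Fdft1, Lss, Cyp51, Hsd17b7, Sc5d, Mylip and Soat1. Acat2 has a close copy, Acat3, at 17.0 counts in KO1 and 28.9 in KO2 and under 10 counts in each WT library. Pmvk, Fdft1, Tm7sf2 and Nr1h3 overlap another protein-coding gene (Pbxip1, Ctsb, Vps51 and Acp2), and no source used here gives the strand setting of the counting, so their values are less certain. Of the 11 genes called, Dhcr7, Msmo1, Insig2, Stard4 and Nr1h2 had whole counts and no overlapping gene.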

How the data were processed

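RNA of 5 libraries (WT1 to WT3, KO1 and KO2, grouped by title) was sequenced. The authors deposited 1 table that gives each library's expected counts and TPM, and FPKM columns not used here. The submitters' processing notes name RSEM 1.3.1, which gives the deposited expected counts, and the build GRCm38.p6. RSEM divides reads that match several genes by probability, so 32.1 to 34.0% of values per library were not whole. The TPM values, per the file headers, were scaled for length by the authors and summed to 1000000 per library. Aligner and strand setting: not given in the sources used here.

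After rounding, the expected counts were fitted with edgeR 4.0.16 (R 4.3.3): filterByExpr by group, TMM factors (0.988 to 1.02), quasi-likelihood test of KO against WT, two-sided, no covariate, Benjamini-Hochberg adjustment over all 12957 genes tested, threshold 0.05. Each SE is the log2 change over the root of its F statistic. The test was first tried on simulated counts that had 1 spread for both groups. The coefficient of variation was 28.9% in KO against 5.21% in WT, so that trial cannot show how the test behaves with unequal spreads. Ratios of single KO libraries to the WT mean and summed TPM are descriptions with no test. No 2 libraries of a group were alike enough to be copies (chi-square per degree of freedom 3.45 to 6.45 for WT pairs, 107 for the KO pair).

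Alternatives were DESeq2 1.42.0 or only its size factors, scaling by total counts, limma-voom (limma 3.58.1) with 1 or a separate spread per group, all genes kept, a harder filter (at least 10 counts in the mean of a group and 50 overall), a replicate block, each library left out, and limma on log2(TPM + 1), on log2(TPM + 0.1) and with a mean TPM of at least 1. Named genes are Angptl4, every one of the 28 genes, and up to 4 genes with the smallest p of each list of other pathway genes. The genes and lists were chosen with earlier results of these data known. Abca1, Abcg1, Lrp8, Erlin1, Acss2, Acat3 and the single marker genes were chosen after their values were seen, as were the promoter motifs and windows shown.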

Additional observations from a re-analysis of the deposited data

How the results depend on the processing

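Of 16 alternatives, the number of cholesterol genes lower in KO (9) was 14 with DESeq2 and 16 with a separate spread per group, and 2 to 20 with 1 library left out. The number higher (2) was 1 with a separate spread, 0 with the replicate block, and 1 to 5 with 1 library left out. The median log2 change stayed negative throughout (-0.98 to -0.75, and -1.57 to -0.32 with 1 library left out). All genes called (5286) numbered 3192 with a separate spread, 1598 with the replicate block and 1957 to 8068 with 1 library left out; other pathway genes called (14) numbered 8 with the block and 8 to 28 with 1 library left out. Angptl4 was lower throughout, and with a separate spread its change of -2.51 did not pass (adjusted p = 0.127). The cause of these shifts was not tested.

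Signs turned for 5 genes that had not passed: Ggps1 (-0.01; 0.02 with total count scaling and with the harder filter, -0.17 to 0.13 with 1 library left out), Ebp (0.06; -0.01 with the block, -0.12 to 0.22 with 1 left out), Tm7sf2 (-1.31 to 0.25), Nsdhl (-1.70 to 0.12) and Srebf2 (-0.42 to 0.15). The replicate numbers are not said to pair the libraries. Same-numbered deviations from the group means correlated at 0.01 and 0.11, and WT3 with KO1, of unlike number, at 0.09. The deviations of the 2 KO libraries mirror each other by construction, so these values cannot decide whether the libraries are paired. With the numbers as a block 6 genes were lower and 0 higher (6.13 and 6.21% of all genes). With 2 KO libraries that differ this much, the size of each change is known only roughly, and with 1 KO library left its spread was assumed to be that of WT.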

Other observations

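For Erlin1 and Acss2, both chosen after their values were seen, the KO libraries differed widely. Erlin1, which helps to degrade sterol-regulated proteins of the endoplasmic reticulum, was at a mean of 34.2 CPM in WT, 32.3 in KO1 and 105 CPM in KO2 (adjusted p = 0.136). Acss2, which makes acetyl-CoA from acetate, was at 32.5 CPM in WT, 22.2 in KO1 and 4.16 CPM in KO2 (adjusted p = 0.159), below the WT range in both.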
